A study of Mus musculus with 30 samples.

Results

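The subunits of oxidative phosphorylation were followed in aortae and kidneys of mice with and without EGFR in vascular smooth muscle cells (VSMCs). Members were the protein-coding genes whose names mark them as nuclear-encoded subunits of complexes I to V (Nduf a, b, c, s and v, Sdh, Uqcr, Cox4 to Cox8 and Atp5). The rule found 84 genes among 41128 in each count file, of which 22026 were protein-coding: 37 of complex I, 4 of complex II, 8 of complex III, 18 of complex IV and 17 of complex V. Counts were present for 74 of them. The other 10 were listed at 0 in every library, and their levels were not analysed. They were Ndufa1, Ndufb11, Sdhd, Uqcrc1, Cox5a, Cox7a2, Cox7b and Atp5l on chromosomes 9 and X, and Cox4i1 and Cox8c elsewhere. The split follows the names. Ndufa4 is now counted with complex IV, Cox7a2l helps to build supercomplexes, and Atp5s and Atp5sl are not subunits of the synthase.

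RNA was sequenced from single male C57BL/6 mice, 14 aortae and 16 kidneys, and 3 mouse numbers occur in both tissues, so that these aortae and kidneys may share an animal. No test was made between the tissues. The transgene carried by every mouse, Smmhc-CreERT2, places an inducible Cre recombinase behind the Myh11 promoter of smooth muscle, and every mouse received tamoxifen. KO mice had Egfr flox/flox alleles, and WT mice carried the Cre without loxP sites. From 6 weeks of age they ate a high-fat diet (HFD) or a standard-fat diet (SFD) for 18 weeks, which gave WT-SFD, WT-HFD, KO-SFD and KO-HFD groups of 3, 4, 3 and 4 aortae and 4 kidneys each. Cre acts in smooth muscle cells, so most kidney cells of KO mice keep EGFR. The aortae had been freed of adjacent tissue, and the kidneys were whole tissue. Total counts were 6403699 to 13052870 per aorta and 16354880 to 28331314 per kidney. Levels are counts per 1e+06 of the TMM-scaled library (FPM).

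Egfr, the deleted gene, had 46.7, 39.5 and 54.3 FPM in WT-SFD aortae, 51.2 to 65.1 in WT-HFD, 26.8, 35.5 and 28.0 in KO-SFD and 27.5 to 40.6 in KO-HFD. The KO and WT ranges did not overlap on either diet, KO being lower, with a log2 fold change of -0.64 ± 0.17 (SE) on SFD and -0.70 ± 0.14 on HFD (edgeR adjusted p = 0.531 and 0.13). In the kidney, where few cells are smooth muscle, Egfr ranged from 36.9 to 58.4 FPM in WT and from 40.5 to 60.8 in KO. The tissue labels went with their markers. The smooth muscle markers summed to 9919 to 17909 FPM in the aorta, with Acta2 the most abundant, and to 108.4 to 159.9 in the kidney. The proximal tubule markers summed to 11738 to 20002 FPM in the kidney and to 71.7 to 118.5 in the aorta.

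Complex I takes electrons from NADH and complex II from succinate. Complex III passes them to cytochrome c and complex IV to oxygen, and complexes I, III and IV pump protons that drive the ATP synthase, complex V. Several subunits of complex IV have a second isoform in muscle or brown fat, and proximal tubule cells and brown adipocytes are rich in mitochondria. Genes of the respiratory chain have no single control element, but promoters with sites for NRF1, ETS factors such as GABP, ERR or YY1 are typical of them.

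The promoters of 5 members show the range. They are the windows from 250 bases before to 50 bases after the RefSeq start on GRCm38.p6, written 5′ to 3′ on the strand of the gene. Capitals mark matches, on either strand, to GCGCANGCG (NRF1) or CCGGAAG (ETS). Cox8b (chr7:140900397-140900696, minus strand) and Cox7a1 (chr7:30183921-30184220, plus strand) encode isoforms of muscle and brown fat and are shown because their levels differed most between aortae. Cox8a (chr19:7217567-7217866, minus strand) and Cox6a1 (chr5:115348909-115349208, minus strand) encode the isoforms of most tissues. Sdha (chr13:74350191-74350490, minus strand) encodes the flavoprotein of complex II.
Cox8b: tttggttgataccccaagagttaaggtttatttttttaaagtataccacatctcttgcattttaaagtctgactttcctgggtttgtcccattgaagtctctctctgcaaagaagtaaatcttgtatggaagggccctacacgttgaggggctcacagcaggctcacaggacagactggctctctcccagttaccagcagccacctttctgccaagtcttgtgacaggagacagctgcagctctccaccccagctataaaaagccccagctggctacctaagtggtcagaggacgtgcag
Cox7a1: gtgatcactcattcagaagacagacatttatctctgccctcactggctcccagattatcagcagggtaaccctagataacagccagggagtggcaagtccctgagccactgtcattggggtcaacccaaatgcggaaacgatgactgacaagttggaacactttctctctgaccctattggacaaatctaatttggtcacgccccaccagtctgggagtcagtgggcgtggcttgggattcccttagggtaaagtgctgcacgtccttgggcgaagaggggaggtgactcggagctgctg
Cox8a: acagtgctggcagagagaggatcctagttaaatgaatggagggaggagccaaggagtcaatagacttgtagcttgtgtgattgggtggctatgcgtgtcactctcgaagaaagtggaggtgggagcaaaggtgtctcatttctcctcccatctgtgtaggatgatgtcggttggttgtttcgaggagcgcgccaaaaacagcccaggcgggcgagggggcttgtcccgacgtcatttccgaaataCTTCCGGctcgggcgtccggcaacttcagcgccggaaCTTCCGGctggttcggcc
Cox6a1: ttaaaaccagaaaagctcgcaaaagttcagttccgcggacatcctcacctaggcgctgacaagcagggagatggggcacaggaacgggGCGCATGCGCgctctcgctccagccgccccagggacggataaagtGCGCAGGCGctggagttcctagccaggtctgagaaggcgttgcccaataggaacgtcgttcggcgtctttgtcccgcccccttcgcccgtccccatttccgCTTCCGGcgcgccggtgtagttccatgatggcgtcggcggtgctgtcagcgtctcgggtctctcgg
Sdha: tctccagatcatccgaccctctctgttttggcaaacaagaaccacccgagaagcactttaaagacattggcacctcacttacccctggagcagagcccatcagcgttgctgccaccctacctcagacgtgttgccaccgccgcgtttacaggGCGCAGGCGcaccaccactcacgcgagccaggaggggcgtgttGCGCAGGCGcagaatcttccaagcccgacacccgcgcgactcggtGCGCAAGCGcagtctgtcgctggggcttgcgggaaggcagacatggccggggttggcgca
Cox8a had 2 ETS matches, Cox6a1 3 NRF1 matches, of which 2 overlap on opposite strands, and 1 ETS match, and Sdha 3 NRF1 matches. Cox8b and Cox7a1 had none of the motifs searched. Of 66 members with a window, 20 (30.3%) held the NRF1 letters, against 7.03% of the 27025 genes with a window. The ETS letters were in 16 (24.2%, against 9.93%), AAGATGGCG for YY1 in 7 (10.6%, against 1.64%) and TCAAGGTCA for ERR in 2 (3.03%, against 0.466%). At least 1 of the 4 motifs was in 35 members (53%), against 16.9% of all genes. The GC content of the windows was 48.3% for Cox8b and 53% for Cox7a1, 56% for Cox8a, 63% for Cox6a1 and 62.7% for Sdha, beside a median of 57.2% over the members and 52.8% over all genes.

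Levels were compared within each tissue as mean FPM per kilobase of mRNA. The tissues were sequenced and scaled separately, so their values stand side by side without a test. In the kidney the members were among the most abundant mRNAs: 57 of 73 tested members lay in the top 10% of 12758 protein-coding genes, and their median percentile was 97.9. In the aorta 41 of 71 lay in the top 10%, with a median percentile of 91.7. All members with counts took 2.61% to 3.59% of the protein-coding counts of a kidney and 0.298% to 1.04% of those of an aorta.

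Over all libraries the medians by complex ran in different orders. In the aorta complex III was highest (59.7 FPM per kb), followed by complex IV (52.1), V (32.8), II (30.6) and I (25.8). The order changed with the group. In WT-SFD complex IV (95.8) lay above III (90.3) and complex II (52.2) above V (39.9), in KO-SFD complex II (38.6) lay above V (32.5), and in WT-HFD and KO-HFD complex I (21.0 and 20.2) lay above II (20.1 and 19.0). In the kidney complex II was highest (351.8), followed by V (334.2), III (291.9), I (256.9) and IV (53.6). In KO-SFD kidneys complex V (355.0) lay above II (345.9). Complex IV spanned the widest range in the kidney, from Cox4i2 at 1.42 FPM per kb, the lowest of all tested members, to Cox6a1 at 2970, the highest. Its medians leave out Cox4i1, Cox5a, Cox7a2 and Cox7b, which were listed at 0. They also cover unlike sets, 12 tested genes in the kidney and 10 in the aorta. Cox4i2 and Cox6a2 (1.42 and 5.29 FPM per kb in the kidney) were too low to be tested in the aorta. The place and share of complex IV are thus not like for like between the tissues. As a percentage of the sum of the 5 medians, complexes I to V took 12.8, 15.2, 29.7, 25.9 and 16.3 in the aorta, and 19.9, 27.3, 22.7, 4.16 and 25.9 in the kidney.

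**Figure D1:**
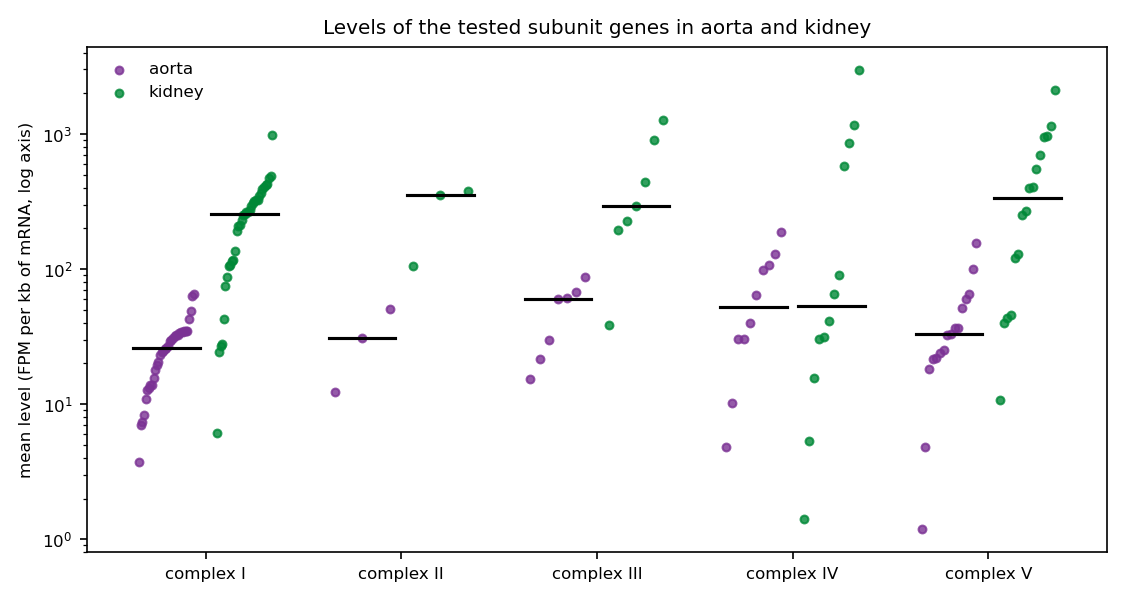
Mean level of each tested member (1 point per gene, FPM per kb of mRNA, log axis) in aorta and kidney, by complex, with the median as a black line. Complex IV spans the widest range in the kidney, from 1.42 to 2970.

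Within the complexes the same genes led in both tissues over all libraries, Cox6a1 of complex IV included (186.9 FPM per kb in the aorta). Ndufa4 was highest of the complex I names (64.9 FPM per kb in the aorta, 988.6 in the kidney) and Ndufa4l2, its paralogue, lowest (3.71 and 6.07), but in WT-HFD and KO-HFD aortae Ndufa3 was higher (52.3 and 52.7, beside 43.5 and 45.4 for Ndufa4). Sdha was highest and Sdhc, a membrane anchor, lowest in complex II (50.6 and 12.3 in the aorta, 379.1 and 104.8 in the kidney), although Sdhb led in KO-SFD kidneys (379.0 beside 345.9 for Sdha). Uqcrq led complex III (87.0 and 1261), with Uqcrfs1, the Rieske iron-sulphur protein, lowest in the aorta (15.3) and Uqcrb lowest in the kidney (38.2). In KO-HFD aortae Uqcrh (61.5) lay above Uqcrq (50.2). Atp5b, the catalytic β subunit, led complex V (156.6 and 2105), and Atp5s was lowest (1.18 and 10.8). In complex IV the lowest tested gene of the aorta was Cox6b2 (4.83). Low values of some members are uncertain, because they share sequence with transcripts of other genes. Of the 74 members with counts, 15 shared more than 25% of their 50-base windows, among them Atp5g2 (100%), Atp5h (66.6%), Cox7c (53%) and Uqcrb (43.4%).

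HFD was compared with SFD in WT aortae. No member passed an adjusted p under 0.05 with edgeR, and neither did any other gene (0% of 14796). Values nevertheless lay to 1 side: 69 of 71 members had a log2 fold change below 0, with a median of -0.91, beside -0.01 over all genes tested. At an unadjusted p under 0.05, 57 members were lower (11.3% of all genes were) and 0 were higher (5.68% of all genes). DESeq2 called 32 members (4.5% of all genes). The groups did not overlap for 8 members, all lower on HFD (4.53% of all genes lower, 4.43% higher).

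Every complex had the same sign in WT. The median log2 fold change was -0.78 in complex I (35 genes), -1.38 in complex II (3), -1.21 in complex III (7), -1.09 in complex IV (10) and -0.76 in complex V (16). With 1 library left out they ranged from -1.065 to -0.512 (I), -1.768 to -0.802 (II) and -1.594 to -0.872 (III). Complex IV ranged from -1.504 to -0.721 and complex V from -0.993 to -0.489. Among the core subunits of complex I, Ndufs1 had -1.21 ± 0.28 (SE), Ndufv1 -1.19 ± 0.32 and Ndufs7 -0.56 ± 0.27. The extremes of complex I were Ndufa10 (-1.49) and Ndufa11 (-0.15). In complex II Sdha had -1.55 ± 0.34 and Sdhb, the iron-sulphur subunit, -1.38 ± 0.39. Complex III ran from Uqcrfs1 (-1.95 ± 0.48) to Uqcrh (-0.97 ± 0.23). Complex IV ran from Cox8b (-3.70 ± 1.08) and Cox7a1 (-3.10 ± 0.81) over Cox6b1 (-1.60), Cox6a1 (-1.26), Cox8a (-1.14) and Cox5b (-1.04) to Cox7a2l (0.01 ± 0.12). In complex V Atp5b had -1.46 ± 0.36, Atp5a1, the α subunit, -1.02 ± 0.28 and Atp5c1, the central stalk, -0.74 ± 0.21, whereas Atp5s had 0.30 ± 0.40. Their smallest adjusted p in edgeR's quasi-likelihood test was 0.0674. Several of these values moved when 1 library was left out. Ndufs7 ran from -0.918 to -0.254, Ndufv1 from -1.543 to -0.751 and Sdhb from -1.768 to -0.802. Cox6a1 ran from -1.666 to -0.80, Cox8a from -1.504 to -0.721 and Cox5b from -1.38 to -0.675. Atp5a1 ran from -1.369 to -0.661, Ndufa11 from -0.287 to -0.039 and Atp5s from 0.137 to 0.568.

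The single aortae show where these values come from. Summed over the members, the level was 5601, 4381 and 1762 FPM in WT-SFD 1, 2 and 3, and 1750 to 1921 in the 4 WT-HFD aortae. WT-SFD 1 and 2 lay far above every WT-HFD aorta, and WT-SFD 3 lay within their range. In KO-SFD 1, 2 and 3 the sum was 3965, 2967 and 1839 FPM, and in KO-HFD it was 1727 to 1980, so the same split recurred. WT-SFD 1 and 2 each exceeded all WT-HFD aortae in 65 of 71 members, whereas WT-SFD 3 exceeded them in 8 and lay below all of them in 19. KO-SFD 1 and 2 exceeded all KO-HFD aortae in 62 members each, whereas KO-SFD 3 exceeded them in 7 and lay below all of them in 14.

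**Figure D2:**
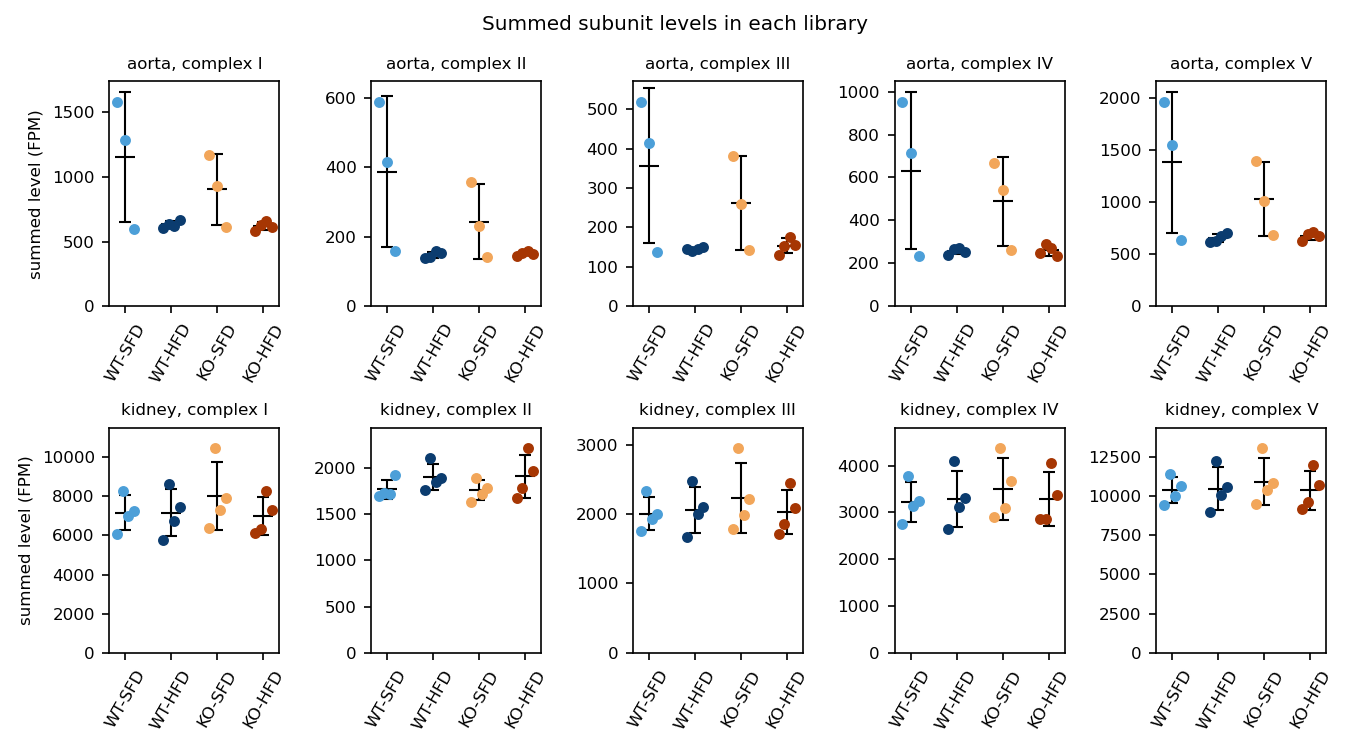
Summed FPM of the members of each complex in every library (points), with the group mean and SD in black, for aorta (top row) and kidney (bottom row). In the aorta 2 of 3 SFD libraries per genotype lie above all HFD libraries, and the third lies near them, with 233.2 FPM for complex IV in WT-SFD 3 below all 8 HFD aortae.

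Markers of adipocytes moved with this split. All 14 adipocyte markers had counts. Their sum was 6199, 5055 and 619.8 FPM in WT-SFD 1 to 3, 552.3 to 749.4 in WT-HFD, 4186, 1503 and 583.5 in KO-SFD 1 to 3 and 524.1 to 665.8 in KO-HFD. Plin4, which coats lipid droplets, was the most abundant taken over all 14 aortae. Of the 10 brown adipocyte markers 9 had counts and Zic1 was listed at 0. Their sum was 1204, 754.4 and 161.9 FPM in WT-SFD, 217.6 to 272.9 in WT-HFD, 641.5, 391 and 175.4 in KO-SFD and 217.2 to 237.5 in KO-HFD. Taken over all 14 aortae Prdm16 was the most abundant, but in WT-SFD 1 and 2 Ucp1 (580.2 and 256.1 FPM) lay above it. Prdm16 also went the other way, with a log2 fold change of HFD over SFD of 0.558 in WT and 0.365 in KO. The other 7 of 8 tested brown adipocyte markers lay below 0 in both genotypes. The summed smooth muscle markers, of which 5 of 7 had counts and Cnn1 and Tagln were listed at 0, were 9919, 12260 and 15355 FPM in WT-SFD 1 to 3, 15831 to 16532 in WT-HFD, 10675, 15910 and 16612 in KO-SFD 1 to 3 and 14838 to 17909 in KO-HFD. They were thus low in WT-SFD 1, WT-SFD 2 and KO-SFD 1, whereas KO-SFD 2 lay within the KO-HFD range. In whole tissue fewer cells of a type and less RNA per cell cannot be told apart. Single libraries decided the counts. Without WT-SFD 3, 59 members were called in WT (12.4% of all genes). In KO, 53 were lower at an unadjusted p under 0.05 without KO-SFD 3 (8.41% of all genes) and 3 without KO-SFD 1 (1.6%). Without SFD libraries 1 and 2 of both genotypes, 0 were lower at an unadjusted p under 0.05 in WT (3.01% of all genes) and 1 in KO (1.6%), and the medians were 0.04 and 0.08. In that fit the lone SFD library is assumed to vary like the other groups. The 4 libraries left out were chosen for their adipocyte markers but are also those highest in the members, so these values describe the libraries that remain and test nothing. With the mean adipocyte marker level as a covariate 9 members in WT (3.97%) and 0 in KO (2.22%) were lower at that p, with medians of -0.14 and 0.09.

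Cox8b showed the split most sharply. It lies at chr7:140898945-140900446 on the minus strand, and its promoter is the first of those printed above. Its level was 176.5, 127 and 2.31 FPM in WT-SFD 1 to 3, and 3.67, 6.13, 13.0 and 8.70 in WT-HFD 1 to 4. In KO-SFD it was 115.1, 66.0 and 1.63 and in KO-HFD 2.2, 8.17, 9.36 and 2.46. The third SFD library was thus below every HFD library in both genotypes, and the groups overlapped. Ucp1, the uncoupling protein of brown fat, had 580.2, 256.1 and 3.03 FPM in WT-SFD, 3.98 to 27.5 in WT-HFD, 193.6, 73.3 and 0.54 in KO-SFD and 1.5 to 18.2 in KO-HFD.

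Cox7a1, at chr7:30184144-30186078 on the plus strand, behaved alike. Its level was 53.8, 34.6 and 2.60 FPM in WT-SFD, 2.55, 3.12, 3.96 and 4.60 in WT-HFD, 33.6, 17.8 and 1.90 in KO-SFD and 1.59, 3.57, 2.96 and 0.68 in KO-HFD. SFD libraries 1 and 2 were again the high ones. The share of Cox8b in the sum of Cox8a and Cox8b per kb was 63%, 63% and 7.51% in WT-SFD, 12.2% to 27.2% in WT-HFD, 59.2%, 49.2% and 4.67% in KO-SFD and 6.33% to 22.9% in KO-HFD. Cox8b took over 50% per kb in 3 of the 6 SFD aortae, but only in WT-SFD 1 and 2 as a share of counts (52.7% and 52.8%, beside 48.7% in KO-SFD 1). Cox6a2, the muscle isoform of Cox6a, was too low to be tested, with 5.13 FPM in WT-SFD 2, 1.25 in KO-SFD 2 and at most 0.24 in the other aortae. WT-SFD 2 also had the highest sum of cardiac muscle markers, 649.7 FPM, beside 99.7 to 207.3 in the others. On HFD 6 of the 6 tested cardiac muscle markers lay below 0 in WT (median log2 fold change -2.2). In KO 4 lay below 0 and 2 above (median -0.73). Their part in the diet result was not tested. Skeletal muscle markers stayed low: 9 of 10 had counts, Acta1 was listed at 0, Tnnt3 was the most abundant, and their sum was 18.2 FPM in WT-SFD 1 and 2.31 to 7.59 in the other aortae.

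Genes without a second isoform followed with smaller steps. Sdha had 414.2, 298.7 and 102.2 FPM in WT-SFD and 84.9 to 98.5 in WT-HFD, which did not overlap. It had 235.8, 148.5 and 93.8 FPM in KO-SFD and 95.7 to 102.3 in KO-HFD, where KO-SFD 3 was the lowest KO aorta. Uqcrfs1 had 69.3, 57.1 and 9.10 FPM in WT-SFD and 10.1 to 13.6 in WT-HFD. Its 33.1, 23.1 and 9.88 in KO-SFD stood beside 7.95 to 12.6 in KO-HFD. Atp5b had 781.9, 620.6 and 183.9 FPM in WT-SFD, 182.8 to 205.4 in WT-HFD, 530.5, 328.9 and 196.5 in KO-SFD and 179.3 to 222.8 in KO-HFD. Cox7a2l had no such pattern, with 33.5 to 49.4 FPM over all 14 aortae.

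**Figure D3:**
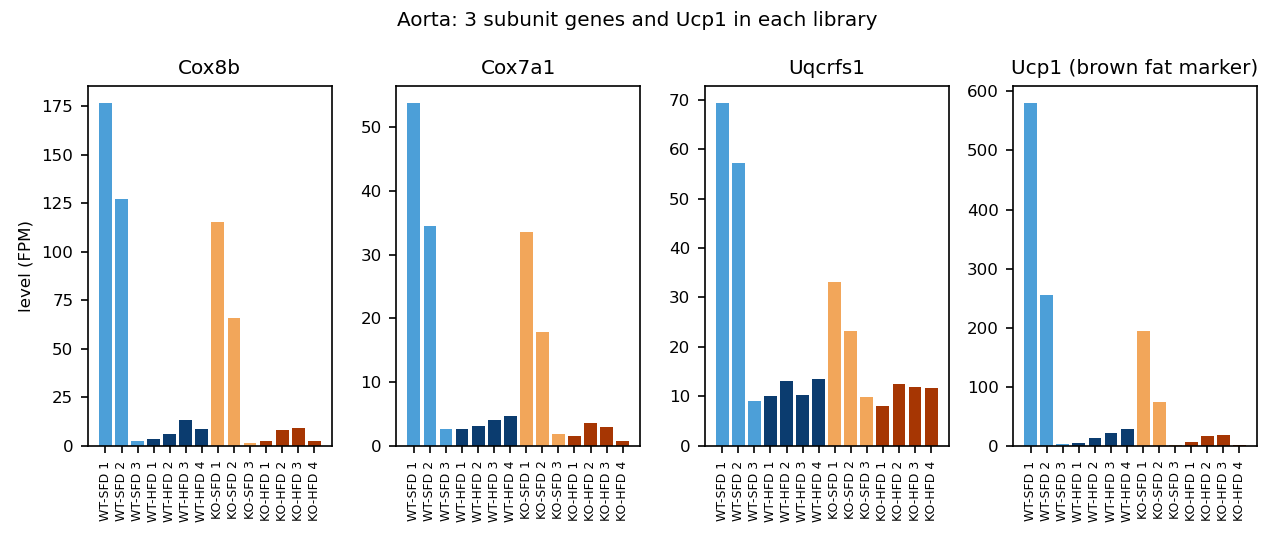
Level (FPM, linear axes from 0) of Cox8b, Cox7a1, Uqcrfs1 and Ucp1 in each of the 14 aortae, coloured by group. SFD libraries 1 and 2 of each genotype are high in all 4 genes. SFD libraries 3 lie within or below the range of the HFD libraries of their genotype, and below it for Cox8b (2.31 and 1.63 FPM).

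In KO aortae HFD gave the same sign with smaller values. No member passed (edgeR, adjusted p under 0.05; 0% of all genes), and DESeq2 called 0. Of 71 members 65 had a log2 fold change below 0, with a median of -0.61 beside 0.00 over all genes. At an unadjusted p under 0.05, 23 were lower (5.11% of all genes) and 0 higher (2.74%). The groups did not overlap for 6 members, all lower (3.59% of all genes lower, 3.45% higher). Medians were -0.61, -0.70, -0.78, -0.78 and -0.41 for complexes I to V. They lay closest to 0 without KO-SFD 1 (-0.27, -0.30, -0.43, -0.56 and -0.20, and -0.30 over all members) and farthest from it without KO-SFD 3 (-0.80, -0.98, -1.09, -1.13 and -0.59, and -0.83 over all members). Cox8b had -3.40 ± 1.09, Cox7a1 -2.92 ± 0.85, Uqcrq -1.25 ± 0.43, Sdhb -1.01 ± 0.39, Ndufb6 -0.95 ± 0.40 and Atp5b -0.83 ± 0.36, whereas Ndufa4l2 (0.14) and Atp5g1 (0.28), a c-ring gene, lay above 0. Without KO-SFD 1 Uqcrq had -0.67, Sdhb -0.52, Ndufb6 -0.56, Atp5b -0.41 and Atp5g1 0.028, and without KO-SFD 3 they had -1.63, -1.37, -1.30, -1.13 and 0.45. In the interaction of diet and genotype 0 members passed (0% of all genes), and 1, Atp5g2, did at an unadjusted p under 0.05 (4.37% of all genes), while DESeq2 called 0. Without WT-SFD 3, 33 were higher at that p (6.05% of all genes), and the median of 0.33 ranged from 0.067 without WT-SFD 1 to 0.64 without WT-SFD 3.

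**Figure D4:**
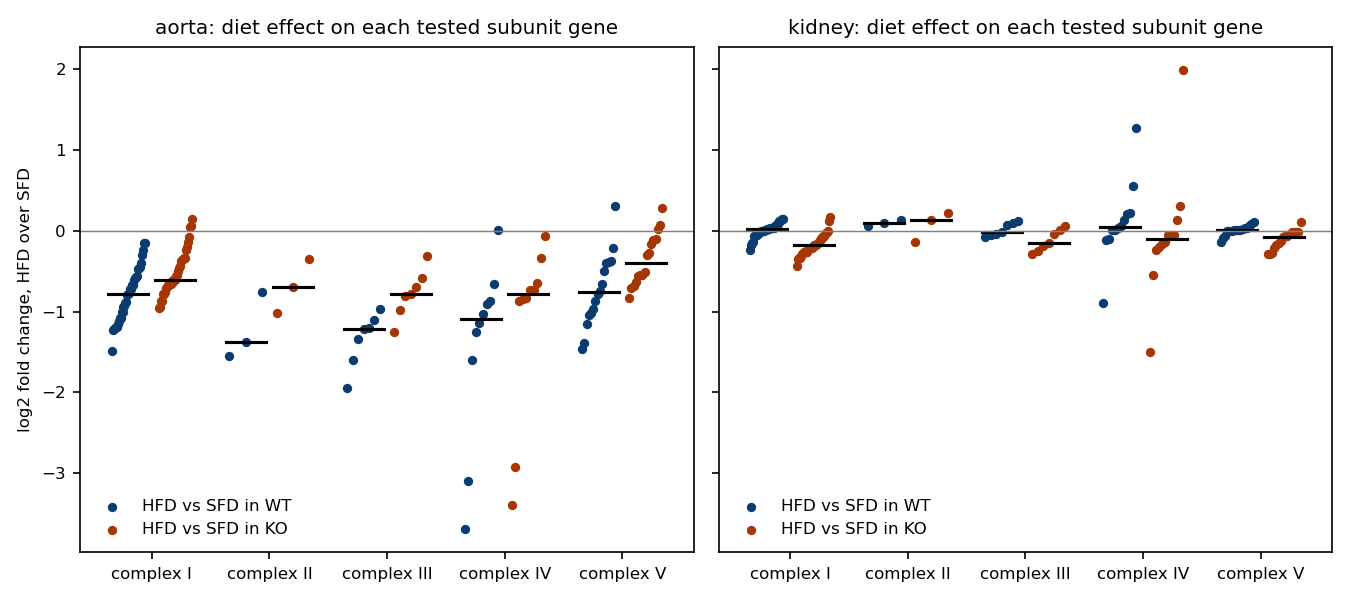
Log2 fold change of HFD over SFD for each tested member (1 point per gene) by complex, in WT and KO, with the median as a black line, for aorta (left) and kidney (right). Aortic values lie below 0 for 69 of 71 members in WT and 65 of 71 in KO, and kidney medians by complex lie between -0.18 and 0.13.

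KO was compared with WT on each diet. These comparisons share their libraries with the diet comparisons. On SFD no aortic member passed (0.0811% of all genes did, DESeq2 called 0 members), 3 were lower at an unadjusted p under 0.05 (3.5% of all genes) and 1 higher (3.03%), and the median was -0.30. Without WT-SFD 3, 46 were lower (9.97% of all genes) with a median of -0.61, without KO-SFD 1, 19 were lower (8.08%), and 0 were without WT-SFD 2 (3.2%) or KO-SFD 3 (1.64%), with a median of -0.064 without KO-SFD 3. The 3 lower were Ndufs1, Ndufs5 and Atp5g2, and the 1 higher was Cox6b2. Markers of other cells also lay to 1 side on SFD. All 14 adipocyte markers lay below 0 in KO (median -1.10), as did all 6 tested cardiac muscle markers (-1.94). In the sums of both lists the groups overlapped. Adipocyte sums were 6199, 5055 and 619.8 FPM in WT-SFD and 4186, 1503 and 583.5 in KO-SFD. Cardiac muscle sums were 121.9, 649.7 and 142.5 FPM in WT-SFD, with WT-SFD 2 far above the rest, and 99.7, 207.3 and 145.6 in KO-SFD. All 6 tested leucocyte markers lay above 0 (median 0.97), with sums of 93.5 to 101.5 FPM in WT-SFD and 145.3 to 213 in KO-SFD. The part of these cells in the result was not tested. On HFD no member passed (0.0811% of all genes, DESeq2 0), 1 was lower at that p, Ndufb10 (2.41% of all genes), and 2 were higher, Cox6b2 and Atp5g1 (2.94%), with a median of 0.00.

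Cox6b2, known as the testis isoform of Cox6b, was the only member to pass an unadjusted p under 0.05 on both diets. Its level was 2.46, 1.13 and 1.30 FPM in WT-SFD, 0.92, 0.60, 0.52 and 1.53 in WT-HFD, 5.09, 5.02 and 2.36 in KO-SFD and 2.08, 2.82, 1.68 and 3.97 in KO-HFD. All KO-HFD aortae were above all WT-HFD aortae, and on SFD the groups overlapped by 1 library of each. Such a separation on HFD was not particular to Cox6b2, since 2 members were higher and 2 lower in KO without overlap. The share over all genes was not counted for this comparison, so no weight is put on it. The log2 fold change of KO over WT was 1.33 ± 0.45 on SFD and 1.55 ± 0.44 on HFD, with edgeR adjusted p values of 0.708 and 0.606. When 1 library was left out, 0 to 1 members were higher on SFD at an unadjusted p under 0.05. The pass of Cox6b2 on SFD thus depended on single libraries. Its share in the sum of Cox6b1 and Cox6b2 per kb was 3.70% ± 2.30 (SD, n = 3) in WT-SFD, 4.69% ± 1.83 (n = 4) in WT-HFD, 10.6% ± 1.22 (n = 3) in KO-SFD and 11.9% ± 4.07 (n = 4) in KO-HFD. Its total over the 14 aortae was 267 counts.

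In the kidney the medians of the diet comparison lay near 0 in every complex. In WT no member passed (edgeR; 0.964% of all genes did; DESeq2 called 0 members), 0 were lower (3.27% of all genes) and 2 higher, Cox6a2 and Cox6b2 (4.78%), at an unadjusted p under 0.05. The median log2 fold change was 0.02, and by complex it lay between -0.02 (III) and 0.09 (II). In KO 1 member rose, Cox6a2 (2.39% of all genes changed), and DESeq2 called Cox6a2 and Sdha (4.62% of all genes). At an unadjusted p under 0.05, 2 were lower, Ndufv1 and Ndufv3 (7.28% of all genes), and 2 higher, Cox6a2 and Sdha (8.86%). Without KO-SFD 1, 10 were lower (9.12% of all genes), and 0 were without KO-SFD 2 (5.29%), KO-SFD 4 (6.42%), KO-HFD 1 (7.39%) or KO-HFD 2 (6.27%). The groups did not overlap for Cox6a2 alone in either genotype (3.02% of all genes higher and 1.99% lower in WT, 5.02% and 3.85% in KO). The KO medians were -0.18, 0.13, -0.15, -0.10 and -0.07 for complexes I to V, with 62 of 73 members below 0. Over all members the KO median was -0.15, and it was 0.019 without KO-SFD 2.

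Between KO and WT kidneys no member passed an adjusted p under 0.05. On SFD 0 passed (0.0133% of all genes; DESeq2 0), 0 were lower (4.16% of all genes) and 2 higher, Cox4i2 and Cox7a1 (4.53%), at an unadjusted p under 0.05, and 69 of 73 values lay above 0 with a median of 0.16, which was 0.006 without KO-SFD 2. Without KO-SFD 1, 6 were higher (6.32% of all genes), and 0 were without KO-SFD 2 (2.92%) or WT-SFD 4 (3.18%). On HFD 0 passed (0% of all genes; DESeq2 0), and 0 were lower (0.825%) or higher (0.925%) at an unadjusted p under 0.05. In the interaction 0 members passed (0% of all genes; DESeq2 0), and 0 did at an unadjusted p under 0.05 (3.35%).

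Cox6a2 encodes the isoform of Cox6a in heart and skeletal muscle. Its kidney level was 2.11, 1.19, 1.61 and 2.29 FPM in WT-SFD, 4.63, 6.12, 3.35 and 3.44 in WT-HFD, 0.63, 1.78, 3.02 and 1.09 in KO-SFD and 3.74, 4.2, 10.8 and 7.59 in KO-HFD. In both genotypes every HFD kidney lay above every SFD kidney. The log2 fold change was 1.27 ± 0.41 in WT (edgeR adjusted p = 0.245) and 1.99 ± 0.41 in KO (adjusted p = 0.0124), and the difference between them was 0.72 ± 0.59 (adjusted p = 1). The gene had 13 to 170 counts per kidney, and its share in the sum of Cox6a1 and Cox6a2 per kb stayed at 0.0365% to 0.41%. Skeletal muscle markers had similar ranges in all groups: 8 of 10 had counts, Acta1 and Myh2 were listed at 0, Actn3 was the most abundant, and their sum was 2.49 to 4.08 FPM in WT-SFD, 2.10 to 3.98 in WT-HFD, 3.33 to 5.34 in KO-SFD and 2.41 to 5.32 in KO-HFD.

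Other values stand beside those of Cox6a2. Cox6a2 (chr7:128205435-128206387, minus strand) lies inside Itgad, an integrin gene of macrophages on the other strand, and 10.3% of its exon bases are also exon of Itgad. How the counting used strand is not given in the sources used here, so reads of the pair may not be told apart. Itgad had 0 to 0.33 FPM in WT-SFD, 0.19, 2.19, 2.22 and 1.63 in WT-HFD, 0 to 0.24 in KO-SFD and 1.30, 0.65, 1.08 and 0.35 in KO-HFD. Its log2 fold change of HFD over SFD was 3.27 ± 0.68 in WT (edgeR adjusted p = 0.0172) and 2.75 ± 0.85 in KO (adjusted p = 0.101). The summed proximal tubule markers (10 of 10 with counts, Slc34a1 the most abundant) were 13147 to 17464 FPM in WT-SFD, 12805 to 15766 in WT-HFD, 11738 to 13514 in KO-SFD and 13362 to 20002 in KO-HFD, while those of the loop of Henle and distal nephron were 6544 to 8782, 5969 to 7707, 8858 to 9354 and 4895 to 7764. With the mean of the proximal tubule markers as a covariate the log2 fold change of Cox6a2 in KO was 0.47 (edgeR adjusted p = 0.753). In a fit of the KO kidneys alone it was 1.98 (edgeR adjusted p = 0.068). The part of Itgad in the result was not tested.

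**Figure D5:**
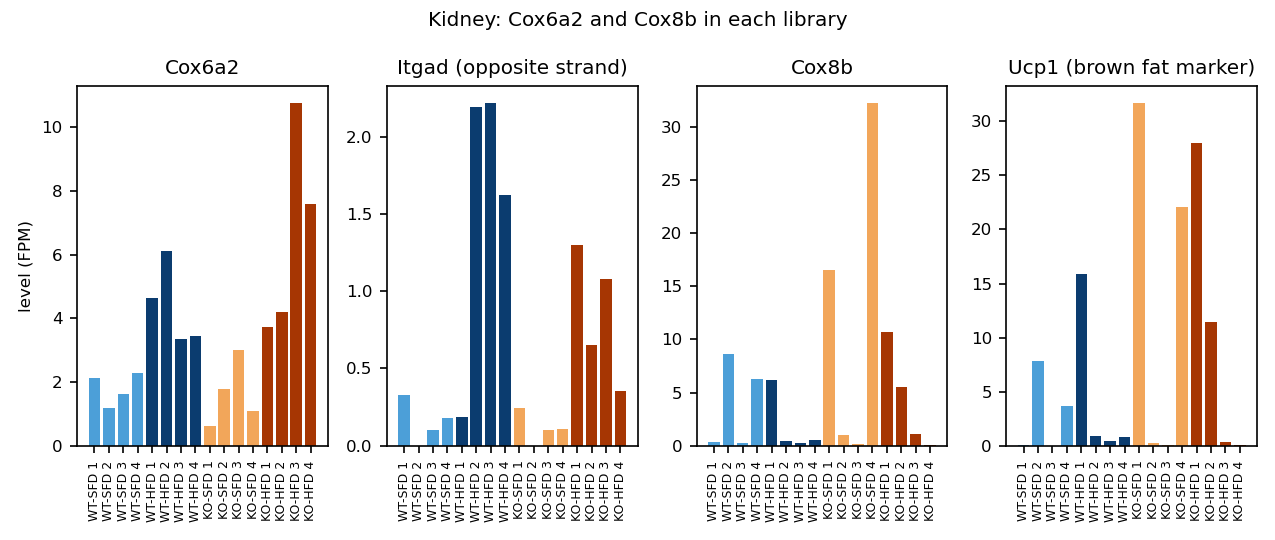
Level (FPM, linear axes from 0) of Cox6a2, Itgad, Cox8b and Ucp1 in each of the 16 kidneys, coloured by group. Cox6a2 is higher in every HFD kidney than in every SFD kidney of its genotype, whereas Cox8b and Ucp1 are high in the same 7 kidneys across groups.

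Cox8b varied between kidneys without following the groups. It had 0.33, 8.67, 0.27 and 6.28 FPM in WT-SFD, 6.20, 0.46, 0.23 and 0.53 in WT-HFD, 16.5, 0.97, 0.20 and 32.2 in KO-SFD and 10.7, 5.49, 1.08 and 0.05 in KO-HFD. In 7 kidneys it was above 5 FPM. Ucp1 had 3.68 to 31.7 FPM in those 7 and at most 0.87 in the other 9. The summed brown adipocyte markers, Ucp1 among them, were 37.4 to 95.6 FPM in those 7 kidneys and 17.5 to 34.6 in the others. Of those 7, WT-SFD 2 and 4 had sums of 37.6 and 37.4 FPM, of which Ucp1 was 7.85 and 3.68. WT-SFD 3 had 34.6 with Ucp1 at 0, so without Ucp1 the sums did not part the 7 kidneys from the others. The part of these markers in the result was not tested. The log2 fold change of Cox8b was -0.90 ± 1.4 in WT and -1.50 ± 1.11 in KO, with edgeR adjusted p values of 0.975 and 0.535. Leaving out 1 kidney moved it between -3.12 and -0.20 in WT and between -2.39 and -0.45 in KO. Cox7a1, the other isoform of brown fat and muscle, had 22.7 ± 4.60 (SD, n = 4) FPM in WT-SFD, 24.9 ± 3.56 in WT-HFD, 30.1 ± 7.58 in KO-SFD and 25.6 ± 3.73 in KO-HFD.

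Most members varied together from kidney to kidney. WT-SFD 2, WT-HFD 2, KO-SFD 2 and KO-HFD 3 were the highest of their groups in 60, 64, 67 and 67 of 73 members. Their sums were 27504, 29546, 32678 and 28943 FPM, beside 20810 to 26387 in the other kidneys. The same 4 kidneys led their groups in the cytosolic ribosomal proteins, a family of short mRNAs outside mitochondria (70 genes with counts), with sums of 8025, 7890, 10198 and 7149 FPM beside 5393 to 7181 in the others. This family was chosen after the values had been seen, and its part in the result was not tested. In the aorta its sum was 2190 to 2728 FPM with no such step. Complex II spread less in the kidney SFD groups, with 1767 ± 107 FPM (SD, n = 4) in WT-SFD and 1756 ± 108 in KO-SFD, than complex I with 7152 ± 892 and 8010 ± 1742. In WT-HFD complex II ran from 1764 to 2103 FPM and complex I from 5790 to 8652. In KO-HFD the ranges were more alike, 1677 to 2210 and 6147 to 8265.

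Sdha was the member that DESeq2 called beside Cox6a2 in KO kidneys. Its level was 978.1, 986.8, 1005 and 1043 FPM in KO-SFD and 1034, 1122, 1300 and 1210 in KO-HFD, with 1 KO-HFD kidney below the highest KO-SFD kidney. The log2 fold change was 0.22 ± 0.10 (edgeR adjusted p = 0.277). With the proximal tubule markers as a covariate it turned negative. Of the 10 proximal tubule markers 9 lay above 0 in the same comparison, and their part in the result was not tested. Ndufv3 (-0.43 ± 0.19) and Ndufv1 (-0.35 ± 0.16) of complex I had adjusted p values of 0.268 and 0.307. With 1 kidney left out, Ndufv3 ranged from -0.531 to -0.227 and Ndufv1 from -0.445 to -0.185.

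Beyond the subunits, no aortic gene of the pathway lists passed an adjusted p under 0.05 in edgeR in either diet comparison. At an unadjusted p under 0.05 in WT, where 11.3% of all genes were lower and 5.68% higher, 9 of 11 electron carriers were lower, among them Gpd2 (-2.58), Cycs, which encodes cytochrome c (-1.92), and Etfdh (-1.74). Of 17 biogenesis regulators 8 were lower and 1 higher, with Ppargc1a, the coactivator PGC-1α, at -1.95, Esrrg at -3.24 and Ppara at -2.57. Of 14 outer membrane and matrix genes 9 were lower, among them Cs, the citrate synthase (-1.37), and of 73 mitochondrial ribosomal proteins 22 were lower. Assembly factors were lower in 4 of 11 genes for complex I, 0 of 2 for II, 2 of 5 for III, 3 of 16 for IV and 2 of 4 for V, and 3 of 5 uncouplers and carriers were lower. Their medians were -1.04 for electron carriers, -0.36 for regulators, -0.56 for membrane and matrix genes and -0.30 for the ribosome, beside -0.91 for the subunits.

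The leading electron carriers and the mitochondrial ribosome divided the WT-SFD aortae as the subunits did. Gpd2 had 286.7, 210.0 and 25.6 FPM in WT-SFD 1 to 3 beside 24.5 to 33.1 in WT-HFD, and Cycs had 77.9, 69.7 and 17.0 beside 12.4 to 16.7. The summed mitochondrial ribosomal proteins were 938.3, 848.7 and 599.5 FPM beside 629.4 to 632.6. The adipocyte markers given above moved with them, and their part in these values was not tested.

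In KO aortae, where 5.11% of all genes were lower at that p, the counts were 5 of 11 electron carriers, 4 of 17 regulators, 2 of 14 membrane and matrix genes, 4 of 73 ribosomal proteins, 2 of 5 uncouplers and carriers, and 2 of 11, 0 of 2, 0 of 5, 1 of 16 and 0 of 4 assembly factors, all lower. In the kidney 2 genes of these lists passed an adjusted p under 0.05, both in KO, where 2.39% of all genes did. Suox, which passes electrons from sulphite to cytochrome c, rose by 0.74 ± 0.14 (adjusted p = 0.00897), and Mrps6, a mitochondrial ribosomal protein, fell by 0.86 ± 0.21 on the log2 scale (adjusted p = 0.0351, edgeR).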

How the data were processed

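The authors mapped paired-end reads to mm10 with TopHat and assigned them to genes with featureCounts. Aortic reads had been trimmed with cutadapt, and kidney reads by the sequencing company. The deposited counts, 1 column per mouse, were used without change. The strand setting used for counting is not given in the sources used here. The study gives 4 mice per aorta group, and 3 SFD libraries per genotype were analysed. Replicates are single mice, and no batch is labelled. The aortae WT-SFD 1, WT-SFD 2 and KO-SFD 1 carry lower mouse numbers than all the other aortae, every HFD aorta included. What the numbers stand for is not stated, and their part in the aortic results was not tested. The sequencing site differed between aortae (a university) and kidneys (a company), so each tissue was fitted alone.

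Counts were filtered with filterByExpr, scaled with TMM factors and fitted with edgeR 4.0.16 (glmQLFit and glmQLFTest, R 4.3.3), with 1 coefficient per group and Benjamini-Hochberg adjustment over all 14796 genes of the aorta or 15034 of the kidney. A member was called at an adjusted p under 0.05. Medians by complex are descriptions. DESeq2 1.42.0 was an alternative. The fits were tested on simulated data. Lengths are those of the shortest principal coding transcript in GENCODE vM21, which held 40254 of the 41128 genes. Promoters were matched by symbol to RefSeq windows.

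Named genes are core subunits, isoforms, called members, the highest and lowest levels and diet effects of each complex, and up to 3 genes per pathway list with the smallest p, except for a gene that is not reported here. Members named to spell out a small count were chosen after their values were seen. The members, lists and tests were chosen with earlier results of these data known. Alternatives were other scalings and filters, protein-coding genes only, only the groups compared, marker covariates, an adjusted p under 0.001 and leaving out each library. The fit without the SFD aortae rich in adipocyte markers and the earlier quasi-likelihood method of edgeR were chosen after seeing the data. A fit with only the rich SFD aortae was also made and is not given, because these libraries are also the highest in the members.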

Additional observations from a re-analysis of the deposited data

Results flagged for a closer look

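Of 133 sets of values from groups of 4 libraries, 6 held 1 library far from the others, and chance alone sets about 1 in 20 apart. In the aorta WT-HFD 1 was lowest in Ndufs7, with 19.9 FPM beside 21.7, 21.7 and 22, and in Ndufv1, with 23.9 beside 29.4, 30.1 and 30.3. In the kidney WT-HFD 1 was highest in Cox8b, with 6.2 FPM beside 0.227, 0.459 and 0.526, and in the share of Cox8b, with 1.85% beside 0.0551, 0.0894 and 0.118. Kidney WT-SFD 4 was highest in Sdha, with 1154 FPM beside 1027, 1033 and 1045, and in the complex II sum, with 1926 FPM beside 1697, 1713 and 1731. No member passed the interaction of diet and genotype.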

How the results depend on the processing

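The aortic diet results depended on which SFD libraries were used. No aortic member was called in either genotype, but in WT 32 were with DESeq2 (4.5% of all genes), 15 with library totals without TMM (2.11%) and 15 without a filter on low counts (1.29%). Leaving out 1 library gave 0 to 59 calls in WT, with 59 without WT-SFD 3 (12.4% of all genes), 26 without KO-SFD 1 (4.14%) and 22 without KO-SFD 3 (2.86%). Members lower at an unadjusted p under 0.05 numbered 36 to 64 in WT and 3 to 53 in KO, with 3 without KO-SFD 1 and 53 without KO-SFD 3. In KO they numbered 47 with library totals (7.58% of all genes), 39 without the filter (4.24%) and 44 with only the groups compared (6.03%). With the adipocyte covariate they were 9 in WT and 0 in KO, and with only the adipocyte-poor SFD aortae 0 and 1. The cause was not tested.

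With the covariate the medians of complexes I to V were -0.13, -0.15, -0.22, -0.10, -0.21 in WT (-0.14 over all members) and 0.088, 0.20, 0.20, 0.000, 0.14 in KO (0.092). The sign turned in WT, to 1.11 for Cox8b, 0.13 for Cox7a1, 0.013 for Ndufa11, 0.22 for Ndufs7, and in KO, to 0.70 for Cox8b, 0.080 for Sdhb, 0.048 for Uqcrq, 0.17 for Atp5b. With only the adipocyte-poor SFD aortae the medians were 0.067, -0.017, 0.21, 0.12, 0.021 in WT (0.039) and 0.078, 0.086, 0.16, 0.12, 0.030 in KO (0.079), and the log2 fold change turned in WT, to 1.76 for Cox8b, 0.44 for Cox7a1, 0.057 for Sdhb, 0.37 for Uqcrfs1, 0.020 for Ndufa10, 0.18 for Ndufa11, 0.002 for Ndufv1, 0.72 for Ndufs7, 0.15 for Cox5b, 0.30 for Cox6a1, 0.14 for Cox8a, 0.12 for Atp5a1, 0.069 for Atp5b, 0.033 for Atp5c1, and in KO, to 1.83 for Cox8b, 0.29 for Cox7a1, 0.086 for Sdhb, 0.003 for Uqcrq, 0.006 for Atp5b, -0.010 for Atp5g1. With these aortae KO against WT on SFD had 0.121 for Uqcrfs1 and a complex V median of 0.079, and the interaction a complex III median of -0.056. The complex II median in WT ranged from -1.77 to -0.80 when 1 library was left out, Cox7a2l in WT from -0.043 to 0.087 and Ndufa4l2 in KO from -0.17 to 0.31.

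In KO kidneys DESeq2 called 2 members, and 0 were called with only the groups compared, with the proximal tubule covariate or at an adjusted p under 0.001. With that covariate the complex II median was -0.27 in KO and -0.21 in the interaction, and Cox8b had 0.036 and Sdha -0.057 in KO. Without division by length the shares of the 5 medians were 25.7% (II) and 21.4% (III) in the aorta and 14.7%, 30.6%, 29.6%, 2.35% and 22.7% (I to V) in the kidney. With sums they were 33.7%, 3.4%, 12.4% and 25% (I, II, III and V) in the aorta and 32.8%, 3.09%, 12.4%, 21.7% and 30% in the kidney. As shares of counts Cox6b2 took 3.26%, 4.66%, 3.31% and 4.51% in WT-SFD, WT-HFD, KO-SFD and KO-HFD kidneys and 8.2% in KO-SFD aortae. Under the other alternatives 935 log2 fold changes kept their direction and their side of the threshold. Of the medians 1369 moved by less than the spread between replicates (1 SD), but 80 of these changed sign, 0 of them in the aortic diet comparisons. Another 29 moved by more, and 20 of these changed sign, 11 in the KO and 5 in the WT aortic diet comparison. In the aorta this spread includes the split among the SFD libraries, so it is a wide measure. Leaving out 1 library moved the members lower for KO against WT on SFD in the aorta between 0 and 46, and those higher in the interaction between 1 and 33.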
